A study of Mus musculus with 10 samples.

Results

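Nptx2, Inhba, Ptgs2, Plk2, Plk3, Gadd45b, Btg2, Ier2 and Tiparp are genes that neurons switch on after firing and whose products are secreted or act as enzymes and regulators in the cell, as opposed to the transcription factors of the same response. They were taken by name from a table of 52636 genes, all 9 were found, and all 9 were among the 15471 genes with a mean of at least 0.5 FPKM (fragments per kilobase of gene, scaled to the sequencing depth of the library) that were tested. Hippocampal RNA was compared between 5 libraries of Tshr-/- mice, which lack the receptor for thyroid-stimulating hormone, and 5 libraries of wild type, and the study's title names learning and memory of space. All mice were C57BL/6 and aged 3 months, and the libraries are biological replicates per the labels. The labels used here do not state the sex of the mice, whether the receptor was deleted in all tissues, whether a library is 1 mouse or a pool, how long before tissue collection the mice were handled, or whether the mutants received thyroid hormone.

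Tshr itself was barely detected and gives only a weak check of the labels. It had 0, 0, 0, 5 and 2 rebuilt reads in Tshr-/- libraries 1 to 5, against 9, 12, 7, 2 and 2 in wild-type libraries 1 to 5. Tshr-/- libraries 4 and 5 lay within the wild-type counts, and since the deleted stretch is not stated in the labels, reads from the rest of the gene could be counted in either genotype.

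When a neuron fires, calcium entry and the kinases it drives act on transcription factors that are already bound at promoters, among them CREB and serum response factor, and a set of genes is transcribed within minutes without new protein being made. A later wave contains secreted and synaptic proteins that adjust the strength of synapses. In the hippocampus many of these transcripts are lower at rest and rise in granule and pyramidal neurons after exploration, learning or seizures. In bulk tissue fewer cells of a type and less RNA per cell cannot be told apart.

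The promoters are shown first because CREB binds a named sequence, the cyclic AMP response element, and because several of these genes are known targets of activity-driven transcription. The RefSeq promoter table (GRCm38.p6, the assembly that mm10 denotes) held an entry for 7 of the 9 genes, and none for Nptx2 and Ier2. Each sequence below is the 250 bases before the RefSeq start, which can differ from the start in the deposited table, on the gene's strand, with the motif in capitals. Plk2 and Btg2 carry the complete element TGACGTCA, at bases 62 to 55 and 166 to 159 before the start. Plk3 carries the half-site TGACG at bases 132 to 128 and at 63 to 59 before the start. Gadd45b and Inhba hold neither, and have the TATA box letters TATAAA at bases 46 to 41 and 91 to 86 before the start.
Plk2 (chr13:110394794-110395043, plus strand): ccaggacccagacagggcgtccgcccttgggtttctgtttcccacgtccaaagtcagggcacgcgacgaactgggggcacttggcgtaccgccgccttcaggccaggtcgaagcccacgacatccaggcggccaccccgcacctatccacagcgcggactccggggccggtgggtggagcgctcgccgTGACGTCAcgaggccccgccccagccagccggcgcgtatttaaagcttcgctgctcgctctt
Btg2 (chr1:134079156-134079405, minus strand): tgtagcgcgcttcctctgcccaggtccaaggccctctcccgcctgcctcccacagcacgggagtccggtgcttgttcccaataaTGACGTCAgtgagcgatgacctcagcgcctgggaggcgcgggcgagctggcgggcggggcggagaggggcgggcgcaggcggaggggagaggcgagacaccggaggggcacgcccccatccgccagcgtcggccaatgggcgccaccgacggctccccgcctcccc
Plk3 (chr4:117133964-117134213, minus strand): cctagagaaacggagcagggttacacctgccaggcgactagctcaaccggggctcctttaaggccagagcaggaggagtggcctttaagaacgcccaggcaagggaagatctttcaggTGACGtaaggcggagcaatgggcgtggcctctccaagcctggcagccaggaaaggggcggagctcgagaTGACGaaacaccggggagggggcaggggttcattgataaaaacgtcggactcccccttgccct
Gadd45b (chr10:80929841-80930090, plus strand): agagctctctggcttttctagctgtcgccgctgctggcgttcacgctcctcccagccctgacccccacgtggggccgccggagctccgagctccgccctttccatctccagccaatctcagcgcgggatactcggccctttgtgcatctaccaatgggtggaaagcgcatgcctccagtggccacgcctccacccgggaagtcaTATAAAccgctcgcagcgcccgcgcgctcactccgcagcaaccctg
Inhba (chr13:16011601-16011850, plus strand): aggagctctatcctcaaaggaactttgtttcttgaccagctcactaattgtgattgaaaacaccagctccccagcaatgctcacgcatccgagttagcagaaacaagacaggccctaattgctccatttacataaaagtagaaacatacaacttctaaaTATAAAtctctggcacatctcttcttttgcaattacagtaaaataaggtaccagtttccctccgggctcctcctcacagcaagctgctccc

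Motifs were searched on both strands from 250 bases before to 50 after the start, in all 32851 entries of the table. TGACGTCA was present in 1.79% of entries and in 2 of the 7 promoters. Its half-site TGACG, which lies within the complete element, was present in 20.8% of entries and in 4 of the 7, the fourth being Ptgs2 with a match at bases 14 to 18 after the start. TATAAA was present in 13.6% of entries and in 2 of the 7. The CArG box bound by serum response factor (1.63% of entries) and the AP-1 site TGANTCA (7.81%) were found in none of the 7. GCGTG, the core letters bound by the aryl hydrocarbon receptor, of which Tiparp is a classic target, was present in all 7 and in 32.4% of entries. These are matches of letters in 1 window and not sites of measured binding.

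The levels of the 9 genes spanned a wide range. Every ± beside an FPKM mean is an SD with n = 5. Plk2 was the most abundant at 45.7 ± 7.33 FPKM in Tshr-/- and 56.3 ± 6.97 in wild type. Nptx2 followed at 21.0 ± 2.84 FPKM in Tshr-/- and 23.0 ± 2.44 in wild type. Neither overlapped its neighbour in the order of levels in either genotype. In wild type Gadd45b, Btg2, Ier2 and Ptgs2 came next, at 9.04 to 5.01 FPKM, each overlapping the next in at least 1 library, while in Tshr-/- Ptgs2 (4.52 FPKM) stood above Ier2 (4.20 FPKM). Plk3 and Tiparp, at 3.60 and 3.09 FPKM in wild type, also overlapped each other. Inhba was the lowest, with 1.44 ± 0.225 FPKM in Tshr-/- and 1.94 ± 0.187 in wild type. The median tested gene stood at 5.01 FPKM in wild type. Reads rebuilt from the FPKM values, behind a single library's value, ran from 4873 to 8623 for Plk2, from 212 to 367 for Inhba and from 146 to 281 for Ier2, the fewest of the 9.

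On average 7 of the 9 genes were lower in Tshr-/-, against 53.3% of all tested genes, and 2 were not, and none of the 9 passed the test across all genes. Limma on log2(FPKM + 0.1) called 2 of the 15471 genes at an adjusted p below 0.05, which is 0.0129%, and 0 of the 9. Inhba, Ier2, Gadd45b, Plk2 and Btg2 were lower at an unadjusted p below 0.05, which makes 5 of 9, against 8.38% of all tested genes in that direction. None of the 9 was higher at that level, against 4.65% of all genes. The 9 genes were listed with earlier results of these data known, so these shares are not independent of these libraries. The count of 5 was 3 without Tshr-/- library 2, against 6.14% of all genes lower, and 3 without wild-type library 3, against 5.88%. Limma voom on the rebuilt reads called 0 of the 9 and gave 4 lower at an unadjusted p below 0.05, where 3.92% of all genes were lower and 10.6% higher and 9 genes were called. The lowest adjusted p among the 9 was 0.200, for Inhba. The median log2 difference, Tshr-/- minus wild type, was -0.21 over the 9 genes and -0.01 over all tested genes. For none of the 9 did every Tshr-/- library lie below every wild-type library, as was so for 1.76% of all genes. The direction of the background depends on the scaling. When each library was rescaled to the reads in its own rows, 3.92% of all genes were lower and 9.92% were higher at an unadjusted p below 0.05, and 4 of the 9 genes were lower (Btg2 then had an unadjusted p of 0.0882), with a median of -0.14 against 0.06 over all genes.

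**Figure D1:**
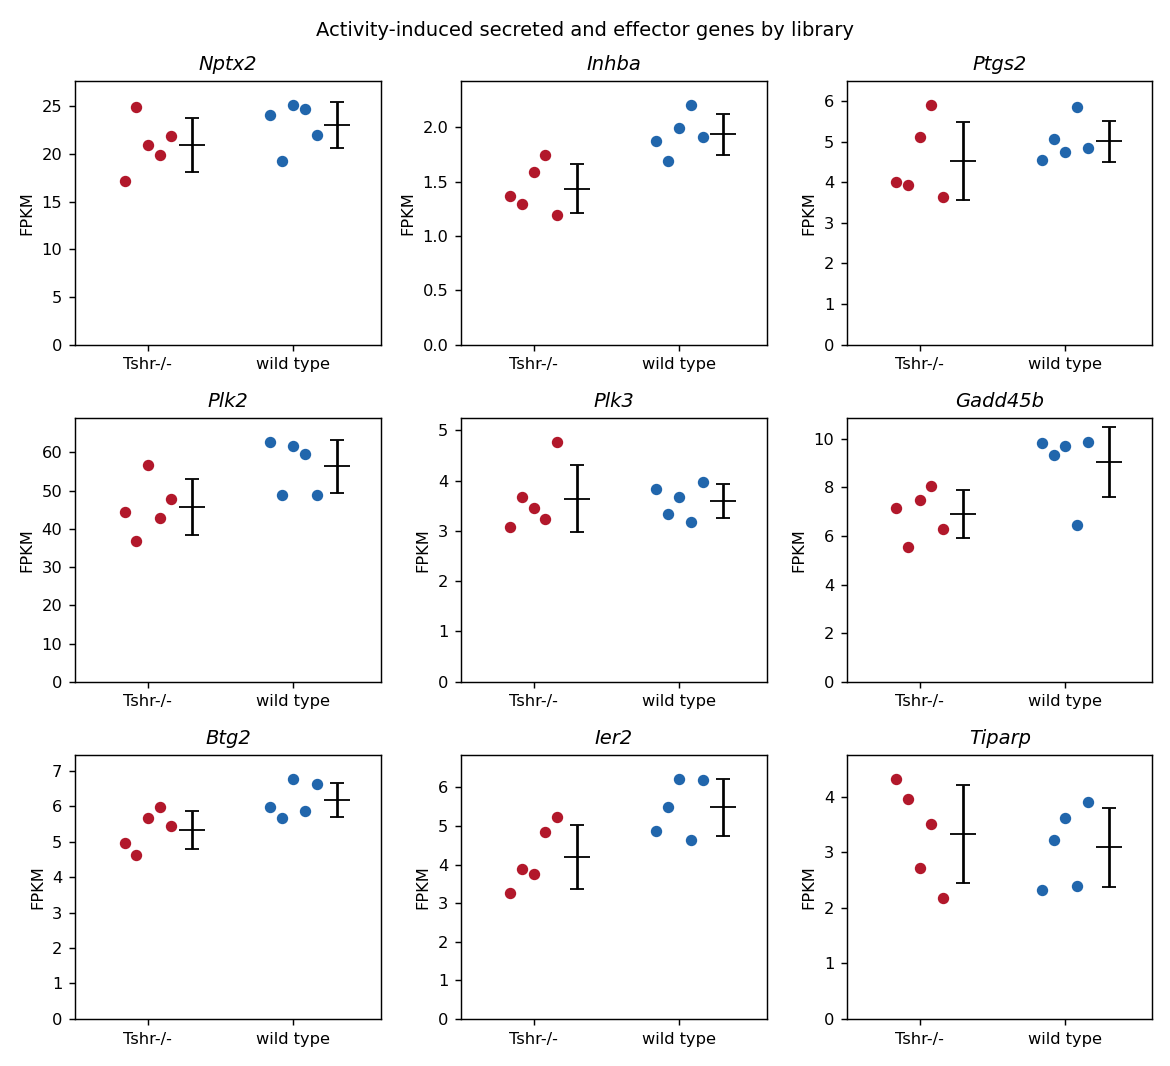
FPKM of each of the 9 genes (vertical axes, from 0) in the 5 Tshr-/- libraries (red, left) and the 5 wild-type libraries (blue, right), with the mean and SD of each genotype in black. The genotypes overlap in every panel, by a single Tshr-/- library for Inhba, whose Tshr-/- library 4 at 1.75 FPKM lies above the lowest wild-type library at 1.69.

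Nptx2, Inhba and Ptgs2 encode the secreted or signal-producing products. Inhba (ENSMUSG00000041324, chromosome 13, 16011851 to 16031621, plus strand, mm10) encodes the inhibin beta-A chain, which pairs with itself to form activin A, a growth factor that neurons release after strong activity and that acts on dendritic spines and neuronal survival. It had 1.37, 1.29, 1.59, 1.75 and 1.198 FPKM in Tshr-/- libraries 1 to 5, against 1.87, 1.69, 1.99, 2.21 and 1.92 in wild-type libraries 1 to 5. Only Tshr-/- library 4 reached into the wild-type range, and there it lay above wild-type library 2 alone. The Tshr-/- mean was 74.2% of the wild-type mean, a log2 difference of -0.41 ± 0.11 (SE, limma unadjusted p = 0.00399, adjusted p = 0.200). Inhba also lies opposite 2 other annotated genes, the pseudogene AC121583.1 at 1.997 to 3.28 FPKM and the antisense RNA AC154742.1 at 0 to 0.237 FPKM, and the library kit as named in the labels is not stated to mark the strand, so reads of these genes cannot be told apart from those of Inhba where they overlap.

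Nptx2 (ENSMUSG00000059991, chromosome 5, 144545902 to 144557478, plus strand) encodes neuronal pentraxin 2, also called Narp, which is secreted at excitatory synapses and clusters AMPA receptors there. It had 17.2, 25.0, 21.0, 19.9 and 21.9 FPKM in Tshr-/- libraries 1 to 5, against 24.1, 19.2, 25.2, 24.7 and 22.0 in wild-type libraries 1 to 5. The lowest value was in Tshr-/- library 1, and Tshr-/- library 2 stood with the highest wild-type libraries. The log2 difference of -0.14 had a 95% interval from -0.36 to 0.09 (limma adjusted p = 0.594). It was -0.068 without Tshr-/- library 1 and -0.20 without Tshr-/- library 2.

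Ptgs2 (ENSMUSG00000032487, chromosome 1, 150100031 to 150108227, plus strand) encodes cyclooxygenase 2, the inducible enzyme that makes the precursor of prostaglandins in excitatory neurons. It had 4.01, 3.93, 5.12, 5.90 and 3.63 FPKM in Tshr-/- libraries 1 to 5, against 4.55, 5.07, 4.75, 5.85 and 4.85 in wild-type libraries 1 to 5. Tshr-/- libraries 1, 2 and 5 lay below all wild-type libraries, while Tshr-/- library 4 was the highest of all 10. The SD was 0.958 FPKM in Tshr-/- and 0.505 in wild type. The log2 difference was -0.17, with a 95% interval from -0.45 to 0.12 (limma adjusted p = 0.611). Without Tshr-/- library 4, which was high in choroid plexus transcripts, it was -0.27 (limma unadjusted p = 0.0328, adjusted p = 0.327). It was -0.094 without Tshr-/- library 5 (unadjusted p = 0.474, adjusted p = 0.753) and -0.11 without wild-type library 4 (unadjusted p = 0.434, adjusted p = 0.758).

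Plk2 and Plk3 encode polo-like kinases, relatives of the kinase of cell division that in neurons are induced by activity, and Plk2 weakens synapses during prolonged high activity by phosphorylating spine proteins. Plk2 (ENSMUSG00000021701, chromosome 13, 110395046 to 110400844, plus strand) had 44.5, 36.9, 56.7, 42.7 and 47.9 FPKM in Tshr-/- libraries 1 to 5, against 62.7, 48.8, 61.8, 59.5 and 48.8 in wild-type libraries 1 to 5. All Tshr-/- libraries except library 3 lay below every wild-type library, and that library lay within the wild-type range. The log2 difference was -0.30 ± 0.12 (SE, limma unadjusted p = 0.0251, adjusted p = 0.317).

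Plk3 (ENSMUSG00000028680, chromosome 4, 117128655 to 117133963, minus strand) had 3.08, 3.68, 3.45, 3.23 and 4.77 FPKM in Tshr-/- libraries 1 to 5, against 3.84, 3.34, 3.67, 3.18 and 3.98 in wild-type libraries 1 to 5. Tshr-/- library 5 was the highest of the 10 and Tshr-/- library 1 the lowest. Its log2 difference was 0.00, with a 95% interval from -0.25 to 0.26 (limma adjusted p = 0.992), and without Tshr-/- library 5 it was -0.10. A gene on the opposite strand, Tctex1d4, overlaps Plk3 and had 0.147 to 0.917 FPKM. The difference of Plk2 was not tested against that of Plk3.

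Gadd45b, Btg2, Ier2 and Tiparp act inside the cell. Gadd45b (ENSMUSG00000015312, chromosome 10, 80930073 to 80932204, plus strand) encodes a stress-sensor protein linked to DNA demethylation at growth factor promoters in dentate granule neurons. It had 7.16, 5.56, 7.48, 8.04 and 6.30 FPKM in Tshr-/- libraries 1 to 5, against 9.84, 9.32, 9.71, 6.47 and 9.86 in wild-type libraries 1 to 5. The overlap came from wild-type library 4, and the other 4 wild-type libraries lay above every Tshr-/- library. The log2 difference was -0.38 ± 0.13 (SE, limma unadjusted p = 0.0164, adjusted p = 0.284). Without wild-type library 4 it was -0.49 (limma unadjusted p = 0.000616, adjusted p = 0.137). It was -0.30 without Tshr-/- library 2 (limma unadjusted p = 0.0413, adjusted p = 0.481). Without the 4 libraries high in thalamic transcripts it was -0.23 (limma unadjusted p = 0.234, adjusted p = 0.721).

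Btg2 (ENSMUSG00000020423, chromosome 1, 134075170 to 134079120, minus strand) encodes an anti-proliferative regulator of messenger RNA decay and transcription. It had 4.97, 4.62, 5.68, 5.98 and 5.44 FPKM in Tshr-/- libraries 1 to 5, against 5.99, 5.68, 6.77, 5.86 and 6.63 in wild-type libraries 1 to 5. Tshr-/- library 4 lay inside the wild-type range and the other 4 lay below it, library 3 by the smallest margin. The log2 difference was -0.21 ± 0.08 (SE, limma unadjusted p = 0.0239, adjusted p = 0.312).

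Ier2 (ENSMUSG00000053560, chromosome 8, 84661331 to 84662852, minus strand) encodes a nuclear protein of the immediate early response. It had 3.27, 3.88, 3.74, 4.86 and 5.24 FPKM in Tshr-/- libraries 1 to 5, against 4.87, 5.49, 6.21, 4.63 and 6.20 in wild-type libraries 1 to 5. Tshr-/- libraries 1, 2 and 3 lay below all wild-type libraries, and Tshr-/- libraries 4 and 5 within their range. The log2 difference was -0.39 ± 0.13 (SE, limma unadjusted p = 0.0154, adjusted p = 0.278).

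Tiparp (ENSMUSG00000034640, chromosome 3, 65528410 to 65555518, plus strand) encodes an enzyme that attaches ADP-ribose to proteins and dampens the aryl hydrocarbon receptor. It had 4.32, 3.96, 2.72, 3.51 and 2.17 FPKM in Tshr-/- libraries 1 to 5, against 2.32, 3.22, 3.62, 2.39 and 3.91 in wild-type libraries 1 to 5. It varied most among the 9 genes, with the highest value 1.99 times the lowest, and both extremes were Tshr-/- libraries (1 and 5). The log2 difference was 0.09, with a 95% interval from -0.35 to 0.54 (limma adjusted p = 0.875), and it was -0.01 without Tshr-/- library 1. The pseudogene 4931440P22Rik lies opposite Tiparp and had 0.300 to 0.559 FPKM.

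Across libraries the genes did not move as 1 block. The mean of the 9 genes, each standardised over the 10 libraries, was -0.87, -0.71, -0.18, 0.03 and -0.42 SD in Tshr-/- libraries 1 to 5, and 0.37, 0.04, 0.86, 0.21 and 0.67 SD in wild-type libraries 1 to 5. Tshr-/- library 4 and wild-type library 2 thus stood almost level. The lowest value of each gene was always in Tshr-/- library 1, 2 or 5, 3 genes in each. The highest value was in wild-type library 3 for 3 genes and in a Tshr-/- library for Ptgs2, Plk3 and Tiparp. For distances between profiles, the mean of the 9 genes was first rescaled to an SD of 1 over the 10 libraries. Btg2 lay closest to this rescaled mean, at a root mean square distance of 0.289 SD over the 10 libraries. Tiparp lay farthest, at 1.42 SD, beyond the 1.32 SD of the median gene outside the list. Each of the 9 is part of the mean and genes outside the list are not, so their distances are not like for like.

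The other genes with the profiles closest to that rescaled mean were Hist1h4k (0.185 SD), Arc (0.303), Mcrip2 (0.329), Snrnp40 (0.336) and Hspa1b (0.342), all measured in the same 10 libraries. Hist1h4k, a histone H4 gene, had 4.27 ± 1.12 FPKM in Tshr-/- and 7.16 ± 1.59 in wild type, and Hspa1b, an inducible heat shock protein gene, had 4.20 ± 0.809 FPKM in Tshr-/- and 6.17 ± 1.25 in wild type. Both have near-identical copies in the genome among which reads may be split, so these levels are uncertain. Mcrip2 had 17.3 ± 1.42 FPKM in Tshr-/- and 21.4 ± 2.36 in wild type, and Snrnp40, a subunit of the U5 spliceosome particle, had 5.07 ± 0.276 FPKM in Tshr-/- and 5.80 ± 0.274 in wild type. They were picked for this likeness, so no test is given for it.

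**Figure D2:**
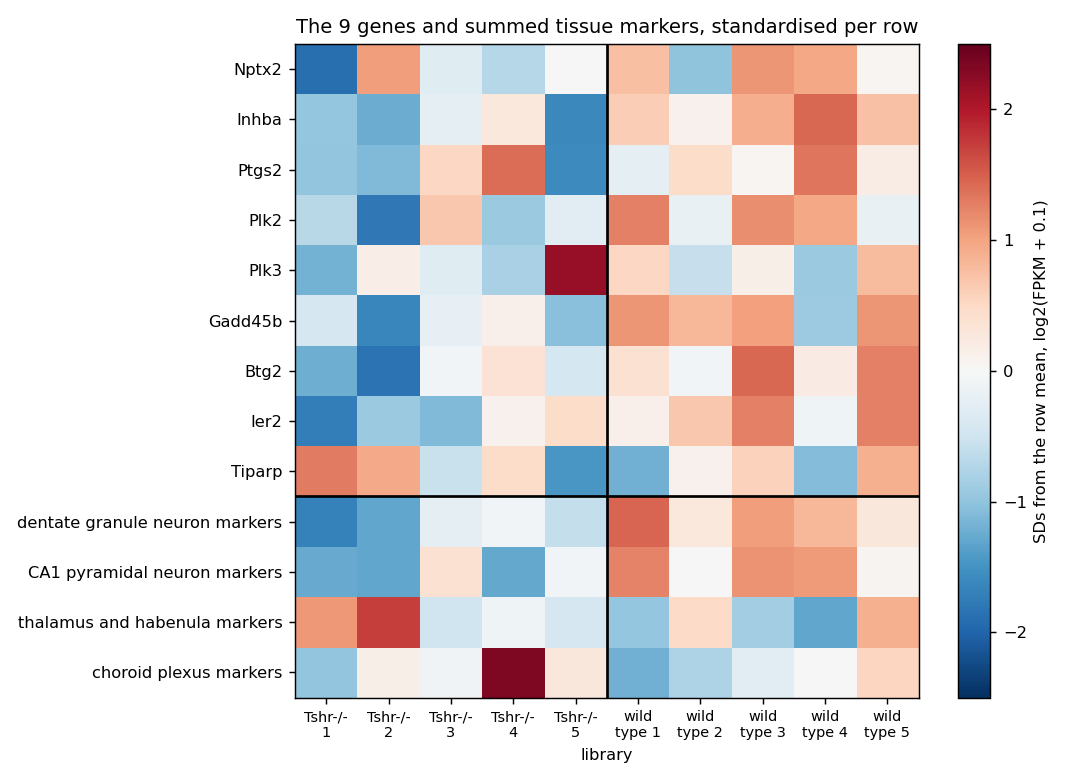
Standardised log2(FPKM + 0.1) of the 9 genes and of the summed markers of 4 tissues (rows) in the 5 Tshr-/- libraries (left of the line) and the 5 wild-type libraries (right), from blue (low) to red (high). Tshr-/- libraries 1 and 2 are low for most of the 9 genes and for dentate and CA1 markers and high for thalamic markers and Tiparp.

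Summed markers of several cell types also differed in level between the genotypes. All 8 dentate granule, all 6 CA1 and all 5 CA3 markers passed the filter. The dentate markers include the mossy fibre protein C1ql2 and the transcription factor Prox1. They summed to 64.7 to 104 FPKM in Tshr-/- and to 115 to 162 FPKM in wild type, with no overlap. Of the 8, 7 were lower at an unadjusted p below 0.05. Among all tested genes 8.38% were lower and 4.65% higher at that level, and these shares also stand beside the marker counts that follow. The CA1 markers summed to 82.8 to 139 FPKM in Tshr-/- and 123 to 180 in wild type (4 of 6 lower), and the CA3 markers to 184 to 269 FPKM in Tshr-/- and 235 to 296 in wild type (2 of 5 lower). Thalamus and habenula markers summed to 156 and 271 FPKM in Tshr-/- libraries 1 and 2 and to 40.6 to 56.8 in Tshr-/- libraries 3 to 5, against 93.1 and 131 FPKM in wild-type libraries 2 and 5 and 20.6 to 30.0 in the other 3 wild-type libraries. Of these 12 markers, 11 were tested and 1 was higher at an unadjusted p below 0.05, and Gbx2 was at 0 in wild-type library 1. Choroid plexus markers summed to 2252 FPKM in Tshr-/- library 4 and to 5.75 to 57.6 in the other Tshr-/- libraries, against 3.86 to 89.2 in wild type, with Kcne2 at 0 in wild-type library 1. Meningeal markers summed to 8.13 to 17.5 FPKM in Tshr-/- and 3.63 to 10.1 in wild type (4 of 6 higher). Interneuron markers summed to 334 to 432 FPKM in Tshr-/- libraries 1 to 4 and 556 in Tshr-/- library 5, against 469 to 546 in wild type (2 of 7 lower). Astrocyte markers summed to 375 to 415 FPKM in Tshr-/- (median 388) and 394 to 453 in wild type (median 433), with 2 of 6 lower. Endothelial markers summed to 61.9 to 87.5 FPKM in Tshr-/- (median 69.1) and 73.2 to 93.6 in wild type (median 87.3), with 1 of 6 lower. Microglial markers summed to 68.3 to 75.8 FPKM in Tshr-/- and 65.5 to 76.3 in wild type, with 0 of 6 past that level in either direction. How far any of these markers bear on the 9 genes was not tested beyond the fits given next.

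The differences were recomputed with these markers in view. Without the 4 libraries high in thalamic transcripts, 3 of the 9 genes were lower at an unadjusted p below 0.05, against 6.26% of all genes. These were Inhba (log2 -0.41), Plk2 (-0.33) and Nptx2 (-0.24), while Gadd45b, Ier2 and Btg2 were at -0.23, -0.18 and -0.12. Each covariate was the mean of log2(FPKM + 0.1) over the tested markers, not their summed FPKM. With the thalamic covariate, the same 5 genes as before were lower at an unadjusted p below 0.05, against 8.26% of all genes. With the dentate covariate, 0 of the 9 were lower at that level, against 5.03% of all genes. Ier2, Gadd45b, Inhba, Plk2 and Btg2 were at log2 -0.35, -0.25, -0.09, -0.06 and -0.05. Ptgs2 was then at 0.25. Since the summed FPKM of the dentate markers does not overlap between the genotypes, a difference of genotype and a difference in dentate content cannot be told apart in these libraries. Whether the covariate itself overlaps is not given here.

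**Figure D3:**
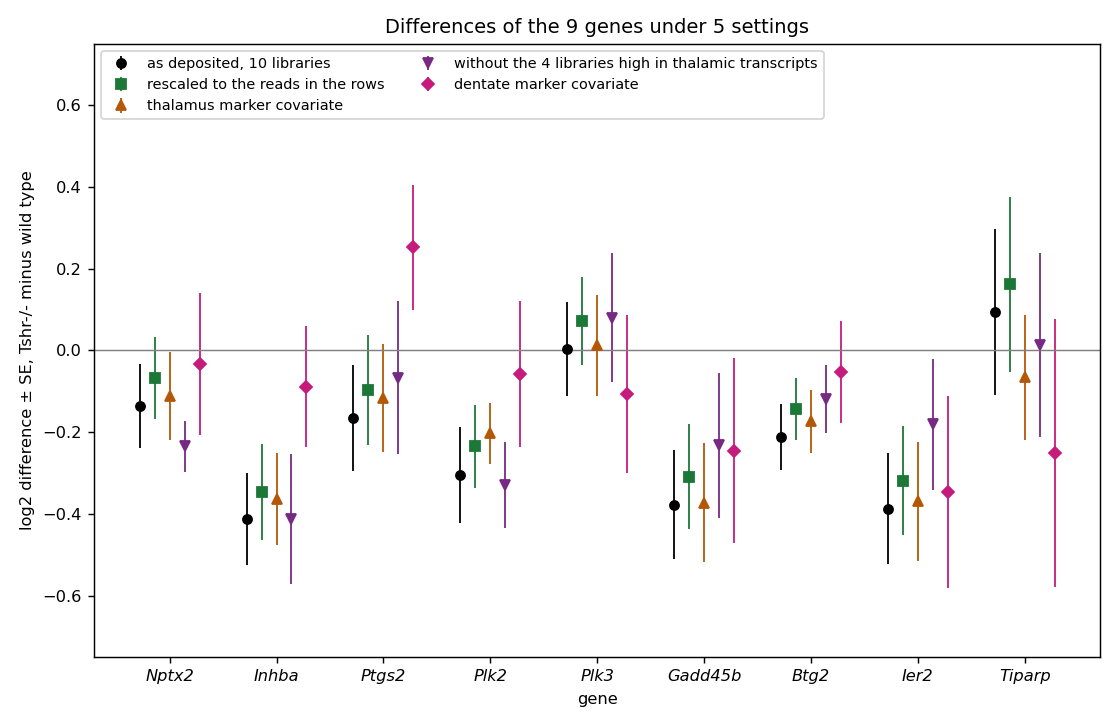
Log2 difference, Tshr-/- minus wild type, with its SE (vertical axis) for each of the 9 genes under 5 settings, marked by symbol and colour. Only Ptgs2, Plk3 and Tiparp lie on both sides of 0 over these 5 settings, and Inhba, Plk2 and Btg2 lie close to 0 with the dentate marker covariate, at -0.09, -0.06 and -0.05.

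The rest of the activity programme was read from a list of 40 other activity-induced genes, which was drawn up with earlier results of these libraries known. All 40 were tested and 0 were called. In Tshr-/- 35 were lower and 5 higher, against 53.3% of all genes lower. At an unadjusted p below 0.05, 19 were lower and 1 higher, against 8.38% and 4.65% of all genes. The median log2 difference of the 40 was -0.35, beside -0.21 for the 9 genes and -0.01 for all genes. For 6 of the 40 every Tshr-/- library lay below every wild-type library, against 1.76% of all genes. The 6 with the smallest p were the ERK phosphatase Dusp6, the synaptic regulator Arc, the transcription factors Fos, Fosb and Npas4 and the nuclear receptor Nr4a1, at log2 differences of -0.58, -1.13, -0.91, -0.89, -0.88 and -0.81 (limma adjusted p = 0.0842, 0.129, 0.136, 0.136, 0.145 and 0.148). Arc averaged 28.2 ± 6.44 FPKM in Tshr-/- and 63.1 ± 20.3 in wild type, and Fos 2.99 ± 0.319 FPKM in Tshr-/- and 5.88 ± 1.69 in wild type. With the dentate marker covariate Dusp6, Arc, Fos, Fosb, Npas4 and Nr4a1 were at -0.34, -0.76, -1.20, -0.79, -0.63 and -0.75. The unadjusted limma p was then 0.062 for Arc and 0.0765 for Npas4, and from 0.00313 to 0.048 for the other 4 genes. The adjusted limma p of the 6 ran from 0.38 to 0.615. In that fit 0 of all tested genes were called, and 5.03% were lower at an unadjusted p below 0.05. The range over the 40 ran from -1.18 to 0.35, that over the 9 from -0.41 to 0.09. Whether the secreted and effector genes differ from these regulators was not tested.

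**Figure D4:**
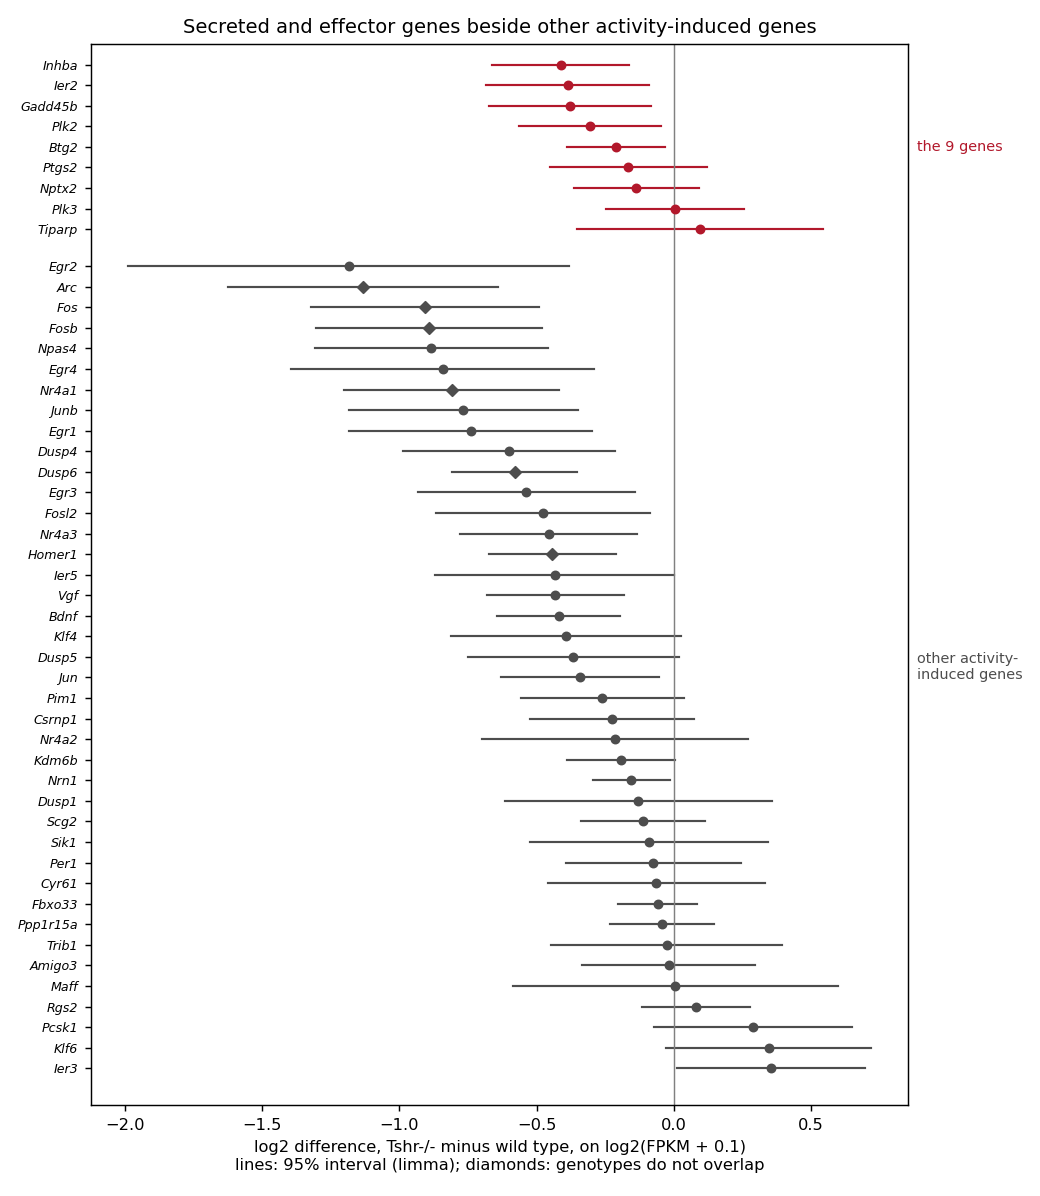
Log2 difference, Tshr-/- minus wild type, with its 95% limma interval (horizontal axis) for the 9 genes (red, top) and 40 other activity-induced genes (grey), each sorted by size. The 9 genes lie between -0.41 and 0.09, and diamonds mark the 6 grey genes whose genotypes do not overlap.

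Relatives and partners of the 9 genes gave a mixed picture. Of 51 such genes 44 were tested and 0 called. Of the 44, 26 were lower and 18 higher, against 53.3% of all genes lower, and the median log2 difference was -0.04. At an unadjusted p below 0.05, 10 were lower and 6 higher, against 8.38% and 4.65% of all genes.

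The neuronal pentraxins act together. Nptx1, the constitutive partner of Nptx2, had 135 ± 30.2 FPKM in Tshr-/- and 179 ± 20.4 in wild type (log2 -0.43, limma adjusted p = 0.275), and is also 1 of the 5 CA3 markers above. Nptxr, the membrane-bound pentraxin receptor, had 176 ± 30.8 FPKM in Tshr-/- and 192 ± 19.8 in wild type (log2 -0.14, adjusted p = 0.653). The AMPA receptor subunit Gria1, named for its small p, had 154 ± 24.3 FPKM in Tshr-/- and 191 ± 16.5 in wild type (log2 -0.32, adjusted p = 0.256). With Gria2, Gria3 and Gria4 this group held 6 genes, 5 lower and 1 higher, against 53.3% of all genes lower. The median log2 difference of the 6 was -0.12 and the highest 0.26.

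Ptgs1, the constitutive cyclooxygenase, had 2.53 ± 0.329 FPKM in Tshr-/- and 2.31 ± 0.289 in wild type (log2 0.13, limma adjusted p = 0.666). Ptges, the inducible prostaglandin E synthase that works downstream of Ptgs2, had 0.641, 1.03, 0.802, 0.855 and 0.726 FPKM in Tshr-/- libraries 1 to 5, against 0.490, 0.560, 0.554, 0.451 and 0.531 in wild-type libraries 1 to 5. Every Tshr-/- library lay above every wild-type library, as was so for 0.911% of all genes, and the log2 difference of 0.55 ± 0.16 did not pass (SE, adjusted p = 0.207).

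In the activin pathway 11 of 12 genes were tested, 7 lower and 4 higher, against 53.3% of all genes lower. At an unadjusted p below 0.05, 2 were lower and 2 higher, against 8.38% and 4.65% of all genes. The log2 differences of the 11 ran from -0.29 to 0.31, with a median of -0.04. Acvr1, a type I receptor, had 6.51 ± 0.711 FPKM in Tshr-/- and 7.98 ± 0.498 in wild type (log2 -0.29, limma adjusted p = 0.194). Fst, the secreted inhibitor follistatin that binds activin, had 0.622 ± 0.120 FPKM in Tshr-/- and 0.702 ± 0.214 in wild type (log2 -0.12, adjusted p = 0.845).

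The other Gadd45 genes stood on the opposite side of 0 from Gadd45b. Gadd45g had 22.0 ± 1.94 FPKM in Tshr-/- and 18.9 ± 2.36 in wild type (log2 0.22, limma unadjusted p = 0.0357, adjusted p = 0.349). Gadd45a had 2.67 ± 0.5002 FPKM in Tshr-/- and 2.39 ± 0.345 in wild type (log2 0.15, adjusted p = 0.669). The difference between Gadd45b and these relatives was not tested. Btg1, the closest relative of Btg2, had 4.59 ± 0.484 FPKM in Tshr-/- and 5.23 ± 0.387 in wild type (log2 -0.19, adjusted p = 0.364).

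Ier5l, which belongs to the same family as Ier2, had 6.82, 5.85, 6.98, 8.13 and 8.99 FPKM in Tshr-/- libraries 1 to 5, against 11.8, 9.46, 11.3, 9.28 and 10.5 in wild-type libraries 1 to 5. Every Tshr-/- library lay below every wild-type library, as was so for 1.76% of all genes. The log2 difference of -0.51 ± 0.11 had the smallest p of the 44 relatives (SE, limma adjusted p = 0.152), and Ier5l is named for that p. Among 8 upstream factors 6 were lower and 2 higher, against 53.3% of all genes lower. Elk1, a partner of serum response factor that ERK phosphorylates, had 13.1 ± 2.28 FPKM in Tshr-/- and 17.7 ± 2.38 in wild type (log2 -0.43, adjusted p = 0.226). With the dentate marker covariate Elk1, Gria1, Nptx1 and Acvr1 were at 0.03, 0.09, 0.09 and -0.045, Gadd45g at 0.050, Ier5l at -0.39 and Ptges at 0.61.

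**Figure D5:**
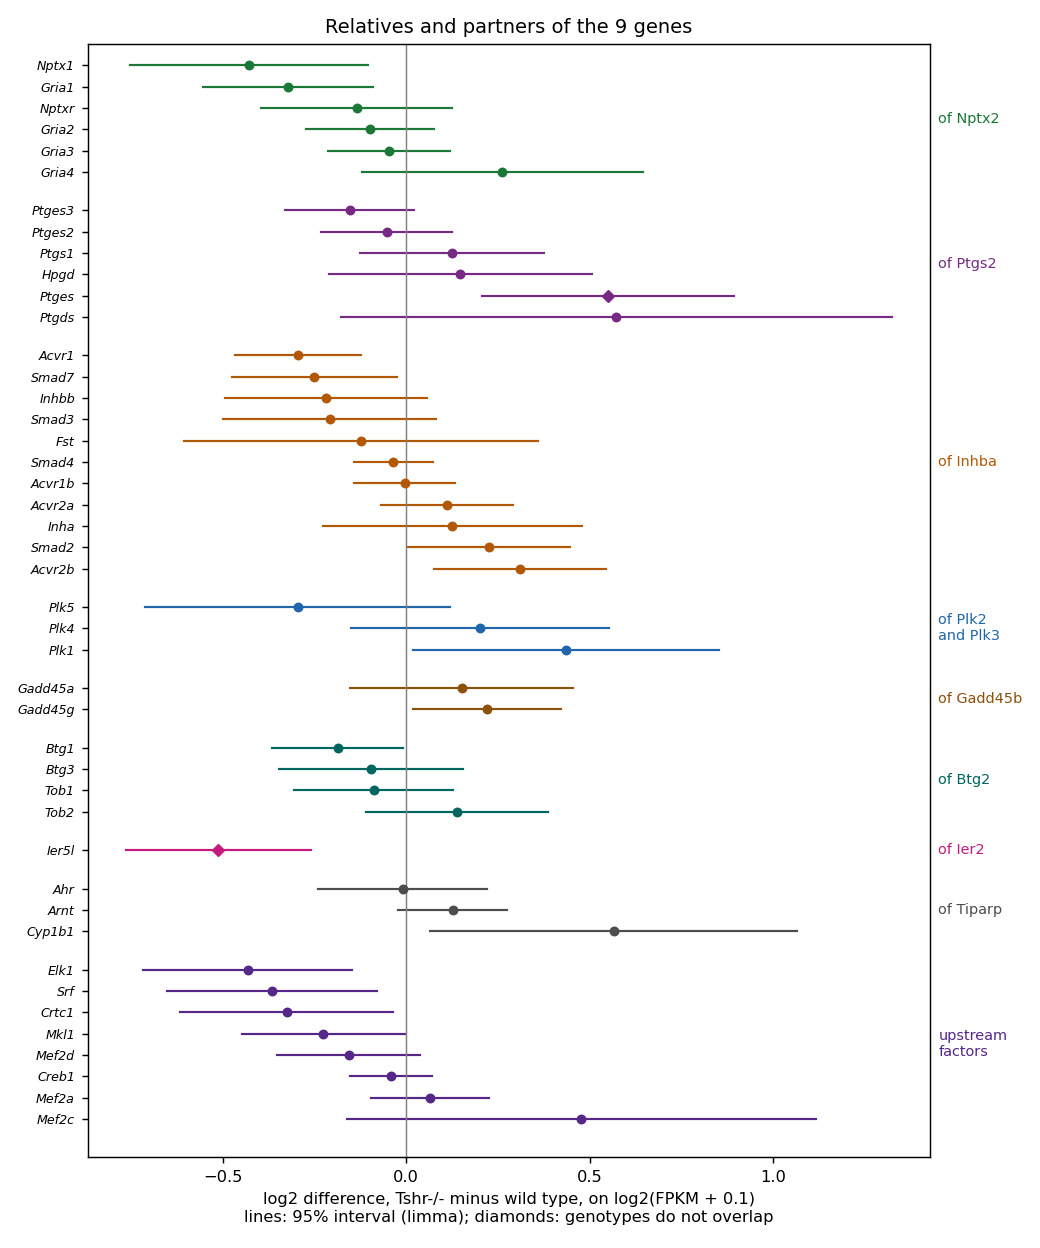
Log2 difference, Tshr-/- minus wild type, with its 95% limma interval (horizontal axis) for the 44 tested relatives, partners and upstream factors, grouped by the gene they belong to. Diamonds mark Ptges, higher in every Tshr-/- library, and Ier5l, lower in every Tshr-/- library.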

How the data were processed

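Hippocampal RNA of 5 Tshr-/- and 5 wild-type libraries was sequenced. The submitters' processing notes name HISAT2 2.0.5, featureCounts 1.5.0-p3 and the build mm10. The authors deposited 1 table of FPKM values with gene lengths. The annotation release and how library sizes were set are not given in the sources used here. Each FPKM multiplied by gene length came to whole multiples of 1 step per library for 100% of values above 0 (tolerance 0.01 of a read), taken as reads. These sum to 25744854 to 28332278 in Tshr-/- and 23899650 to 33529811 in wild type. FPKM times length summed to 0.945 to 0.999 of what these reads would give in Tshr-/- and to 0.997 to 1.06 in wild type.

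Each gene was tested on log2(FPKM + 0.1) with limma 3.58.1 (R 4.3.3), a 2-genotype model with a variance trend, for genes with a mean of at least 0.5 FPKM, and Benjamini-Hochberg adjustment over all 15471 genes. Fold changes on this scale understate those of low genes. The genes and lists were chosen with earlier results of these data known. Named genes are the 9, the 6 of each list with the smallest p, 7 relatives taken whatever their values, and the 5 closest profiles. The alternatives were other pseudocounts (1 and 0.01), filters, scalings, weights, covariates, limma voom on the rebuilt reads, a replicate block and each library left out. The rescaling to the reads in the rows was chosen after seeing the data.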

Additional observations from a re-analysis of the deposited data

Results flagged for a closer look

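The following 3 values stood apart from the other libraries of their genotype by a gap test (Dixon's, 95% level) over the 31 named genes in 2 genotypes, and chance gives about 1 such value in 20 groups, of which there were 62. Gadd45b was at 6.47 FPKM in wild-type library 4, below the 9.32 to 9.86 of the other 4 wild-type libraries. Ptgs1 was at 1.82 FPKM in wild-type library 5, below 2.34 to 2.54 in the others. Mcrip2 was at 25.5 FPKM in wild-type library 3, above 19.8 to 21.1 in the others.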

How the results depend on the processing

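No alternative called any of the 9 genes. Their adjusted p ranged from 0.137 to 0.999 over 25 alternatives. Of 225 recomputed differences 214 kept their sign. Those that did not were Plk3 with quantile normalization (-0.016), array weights (-0.051) and the dentate covariate (-0.11), Tiparp with the thalamic (-0.066) and dentate covariates (-0.25), Ptgs2 with the dentate covariate (0.25), and, with 1 library left out, Plk3 (from -0.096 to 0.057) and Tiparp (from -0.0065 to 0.23). Of the other named genes, 7 changed sign, all with the dentate covariate: Elk1 (0.027), Gria1 (0.089), Nptx1 (0.094), Nptxr (0.28), Fst (0.040), Gadd45a (-0.22) and Btg1 (0.083). The cause was not tested. The number of the 9 genes lower at an unadjusted p below 0.05 was 5, against 8.38% of all genes. It became 0 with the dentate covariate (5.03% of all genes) and 3 without the 4 libraries high in thalamic transcripts (6.26%). With 1 library left out it ran from 3 to 5, while the share of all genes ran from 5.32% to 10.1%. It was 3 on omitting Tshr-/- library 2 (6.14% of all genes) or wild-type library 3 (5.88%). The median difference of -0.21 became -0.089 with the dentate covariate. The count of called genes over the table, 2, became 14 with a pseudocount of 0.01, 4 with no filter, 13 with a filter at 1 FPKM, 13 with median-ratio scaling, 4 with quantile normalization, 1 with no variance trend, 17 among protein-coding genes, 9 with limma voom, 7 with the thalamic covariate, 0 with the dentate covariate (1361 genes at an unadjusted p below 0.05) and 8 after rescaling to the reads in the rows. With 1 library left out it ran from 0 to 9, and was 0 on leaving out Tshr-/- library 2 (1525 genes at an unadjusted p below 0.05) or wild-type library 2 (2199), 3 (1449) or 4 (2006). Without Tshr-/- library 3, Dusp6 passed (limma adjusted p = 0.0239). Same-numbered libraries deviated together with correlations of -0.06, 0.30, 0.08, 0.17 and -0.07, so the numbers were not taken as pairs. With the replicate block 3 genes were called, 0 of the 9, and 5 of the 9 were lower at an unadjusted p below 0.05, against 8.58% of all genes. Ier2 had the fewest reads of the 9 genes, 146 to 281 per library.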

Other observations

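Among the relatives, 7 were below the filter and were not tested. These include the prostaglandin E receptors, with Ptger3 at 0.604 ± 0.315 FPKM in Tshr-/- and 0.380 ± 0.0944 in wild type, and Ptger1, Ptger2 and Ptger4 at 0.209, 0.117 and 0.213 FPKM in Tshr-/- and 0.219, 0.126 and 0.213 in wild type. The phospholipase Pla2g4a, which releases the fatty acid that cyclooxygenases use, had 0.487 ± 0.0870 FPKM in Tshr-/- and 0.413 ± 0.128 in wild type. Ahrr, the repressor of the aryl hydrocarbon receptor, had 0.108 ± 0.0244 FPKM in Tshr-/- and 0.0949 ± 0.0257 in wild type, and the activin-binding protein Fstl3 had 0.331 ± 0.184 FPKM in Tshr-/- and 0.217 ± 0.0832 in wild type (SD, n = 5 each).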
